A study of Sus scrofa with 12 samples.

Results

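The genes of the circadian clock were examined in oxyntic mucosa, the part of the stomach lining that secretes acid, from 12 piglets. The members were NR1D1, NR1D2, PER1, PER2, PER3, CRY1, CRY2, CLOCK, ARNTL and DBP, chosen by name as core genes of the mammalian clock, at a time when earlier results of these data were known. Of these 10 genes, 7 were measured by a feature of the array annotated with that gene symbol alone, among 10882 genes in all. NR1D2, PER3 and DBP were not analysed here. Where a gene had several features, the brightest one was used, and all levels below are log2 of the deposited intensity, on which a difference of 1 is a doubling.

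The study asked whether the microbiota given to newborn piglets alters the maturation of the gastric mucosa. All 12 piglets were (Great York x Pietrain) x Dalland crosses delivered by caesarean section, were fed artificially, received a starter of Lactobacillus amylovorus, Clostridium glycolicum and Parabacteroides spp. on d1 to d3, and were sampled at 2 wk of age. On d3 to d4, 6 piglets (CA1 to CA6) were inoculated with a dilution of adult sow feces, called the complex association (CA), and the other 6 (SA7 to SA12) with a placebo, called the simple association (SA). Each piglet gave 1 array of bulk mucosa. Per the labels the treatments were housed in separate rooms, so that room and microbiota cannot be told apart. The hour of sampling, the time since the last meal, and the litter, sex and pen of each piglet are not given in the sources used here, so none of them could enter a comparison. By the paper the 12 piglets came from fewer sows, so littermates are among them. All p-values below, also those of correlations, treat the piglets as independent.

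The clock is a feedback loop of transcription that runs in nearly every cell over about a day. CLOCK and ARNTL (also called BMAL1) bind DNA as a pair and activate the PER and CRY genes, whose proteins return to the nucleus and inhibit that pair. The same pair activates NR1D1 (REV-ERB alpha), which in the mouse represses ARNTL and CRY1, so that transcripts of NR1D1 and of ARNTL peak at opposed times of day in rodent tissues. In rodents the stomach has a clock of its own, which is set in part by feeding time.

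The tissue carried its defining transcripts, as ATP4A, the proton pump subunit of parietal cells, averaged 12.12 in the CA and 11.90 in the SA, and PGA5, a pepsinogen of chief cells, 12.30 and 12.24. The median intensity of the arrays lay between 55.6 and 57.6. The array of CA4 stood apart. It had the highest loading on the first principal component of all genes, 0.71 against -0.46 to 0.28 in the others, and 206 of its genes lay more than 0.5 below every other piglet, against 0 to 24 in the others. Values without CA4 are given beside the results that this array moved most.

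No clock gene differed between the CA and the SA after adjustment over all genes. In the fit with limma, the Benjamini-Hochberg adjusted p was 0.999 for each of the 7 members, and 0 of 10882 genes were called (0%). Before adjustment, 3 of the 7 members, NR1D1, PER1 and PER2, had a limma p under 0.05, all with the higher mean in the CA, where 357 of all genes did (3.28%), 224 of them higher in the CA (2.06%) and 133 lower (1.22%). Without CA4 only PER1 of the members had a limma p under 0.05, at 0.0387 (adjusted p = 0.983), where 499 of the 10882 genes had one. By the exact permutation test over every split of the 12 piglets into 6 and 6, 1 member (PER1) had an unadjusted p under 0.05, against 373 genes (3.43%), and 0 members had an adjusted one. The groups overlapped in all 7 members, and failed to overlap in 14 genes of the array (0.129%). In bulk mucosa, fewer cells of a type and less RNA per cell cannot be told apart in any of these levels.

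**Figure D1:**
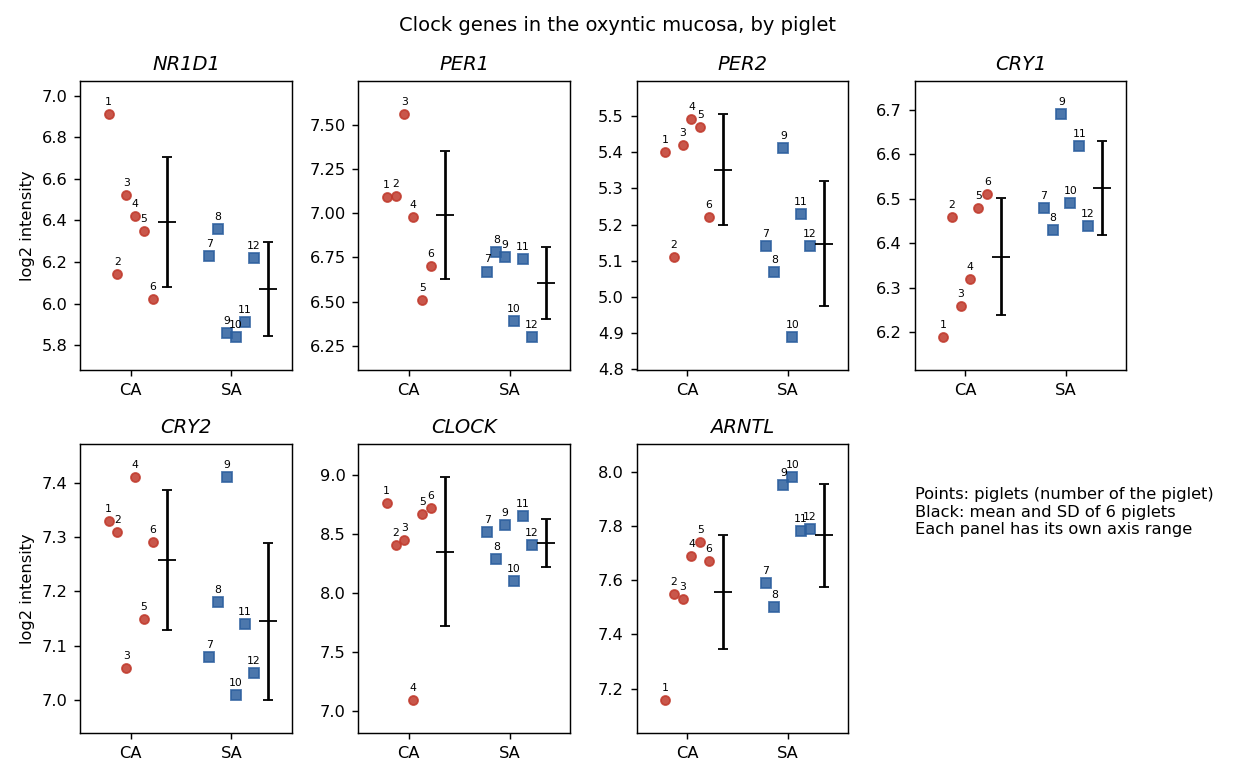
Log2 intensity (y axis) of the 7 measured clock genes in each piglet, with CA and SA side by side in each panel, the piglet number beside each point, and the group mean and SD (n = 6) in black. The groups overlap in every panel, and CLOCK of CA4, at 7.10, lies 1.00 below the lowest of the other 11 piglets.

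NR1D1 encodes the nuclear receptor that acts as the repressor of the second loop. Its level was 6.02 at the lowest, 6.39 at the median and 6.91 at the highest in the CA, and 5.84, 6.07 and 6.36 in the SA. CA1 stood at the top and SA10 at the bottom, and 3 CA piglets lay above every SA piglet. The CA mean of 6.39 ± 0.31 (SD, n = 6) and the SA mean of 6.07 ± 0.23 (SD, n = 6) gave a difference of 0.32 on the log2 scale (SE 0.14, 95% interval 0.01 to 0.63, limma p = 0.0418, exact permutation p = 0.0671), or 1.25 times.

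PER1 is the period gene whose transcript is also induced quickly by glucocorticoids and other signals. It read 6.51, 7.03 and 7.56 (lowest, median, highest) in the CA and 6.30, 6.70 and 6.78 in the SA. In 4 CA piglets PER1 was above all 6 SA piglets, whereas CA5 and CA6 lay inside the SA range. The CA mean of 6.99 ± 0.37 (SD, n = 6) exceeded the SA mean of 6.61 ± 0.21 by 0.38 (SE 0.15, 95% interval 0.05 to 0.71, limma p = 0.0261, exact permutation p = 0.0433), or 1.30 times.

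PER2, the other period gene measured, was dim. Its mean over all piglets, 5.25, was under the 5.82 that is the median of all features on the array. It ranged from 5.11 through a median of 5.41 to 5.49 in the CA, and from 4.89 through 5.14 to 5.41 in the SA. SA10 was again the lowest piglet, and SA9 was the SA piglet inside the upper CA values. The difference was 0.21 (SE 0.09, 95% interval 0.01 to 0.40, limma p = 0.0405, exact permutation p = 0.0584).

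CRY1 and CRY2 encode the cryptochromes, the partners of PER in the inhibitory complex, and their means differed in opposite directions. CRY1 had 6.19, 6.39 and 6.51 as its lowest, median and highest levels in the CA, and 6.43, 6.48 and 6.69 in the SA. CA1, CA3 and CA4 lay below every SA piglet, and SA9 and SA11 above every CA piglet. The CA minus SA difference of CRY1 was -0.15 (SE 0.07, 95% interval -0.31 to 0.00, limma p = 0.0564, exact permutation p = 0.0671). For CRY2 the CA levels ran from 7.06 through 7.30 to 7.41 and the SA levels from 7.01 through 7.11 to 7.41. No CA piglet lay outside the SA range, and the difference of 0.11 (SE 0.08, 95% interval -0.06 to 0.29, limma p = 0.175, exact permutation p = 0.175) was smaller than the SD within either group.

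CLOCK encodes an activator subunit with histone acetyltransferase activity. Its level was 8.76, 8.41, 8.45, 7.10, 8.67 and 8.72 in CA1 to CA6, and 8.10, 8.46 and 8.65 (lowest, median, highest) in the SA. Apart from CA4, the CA piglets spanned the upper part of the SA range and passed it slightly. The difference was -0.07 with all piglets (SE 0.24, 95% interval -0.58 to 0.44, limma p = 0.767, exact permutation p = 0.933) and turned to 0.18 without CA4, the piglet whose array stood apart.

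ARNTL, the obligate partner of CLOCK, was measured by 3 features. The brightest read 7.16, 7.61 and 7.74 (lowest, median, highest) in the CA and 7.50, 7.79 and 7.98 in the SA. All 6 CA piglets lay below the SA median, with CA1 the lowest of the 12. The difference was -0.21 (SE 0.11, 95% interval -0.44 to 0.03, limma p = 0.0781, exact permutation p = 0.102), and the other features gave -0.08 and -0.22. Without CA1 the difference of the brightest feature was -0.13. These features correlated with the brightest at r = 0.80 and 0.88 over the 12 piglets.

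**Figure D2:**
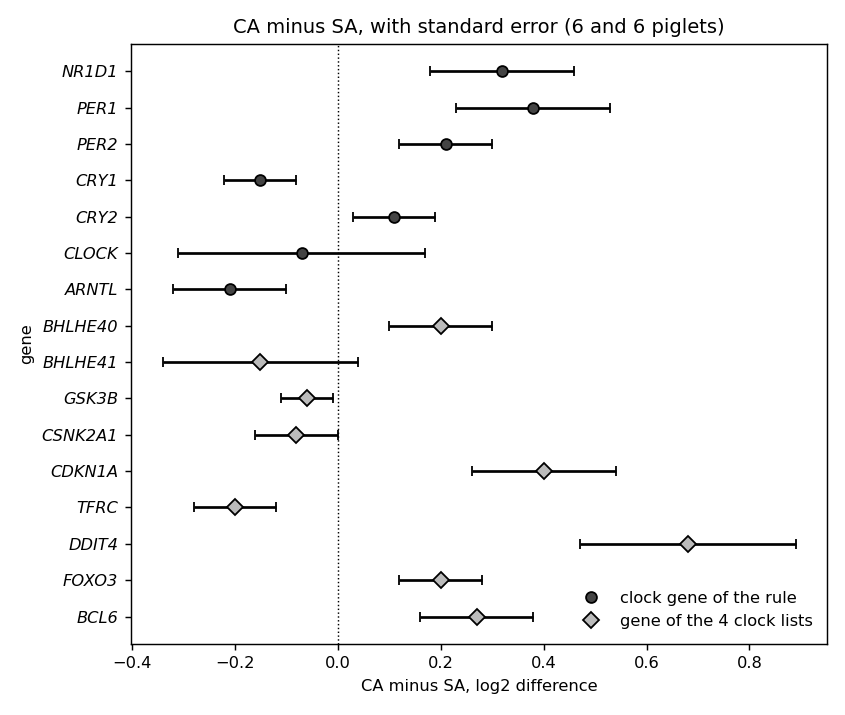
CA minus SA difference in log2 level (x axis) with its SE for the 7 clock genes (circles) and for 9 genes named from the lists of clock-related genes (diamonds). NR1D1, PER1 and PER2 lie to the right of 0 at 0.32, 0.38 and 0.21, CRY1 and ARNTL to the left at -0.15 and -0.21, and no gene passed the test after adjustment over all genes.

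The members differed in how much they varied between piglets of a group. The SD within groups was 0.30 for PER1 and 0.27 for NR1D1, against a median of 0.16 over all genes, and these placed them at percentile 89.9 and 87.2 of all genes. Among the genes nearest in mean level, NR1D1 stood at percentile 77.8, and PER1 too stood lower than among all genes. CRY1, at 0.12, was at percentile 25.8 of all genes and 9.98 of the genes nearest in mean level. CRY2, at 0.14, was at percentile 35.6 and 19.0. ARNTL at 0.20 and PER2 at 0.16 were intermediate. The SD of CLOCK was 0.47 with CA4 and 0.18 without it. Without CA4 the percentiles among all genes were 38.7 for CRY1, 43.9 for CRY2, 91.2 for NR1D1 and 92.9 for PER1. The low places of CRY1 and CRY2 thus rested in part on that array.

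The clearest pattern among the members was between piglets rather than between groups: piglets with more NR1D1 had less CRY1 and less ARNTL. CA1 had the highest NR1D1 and the lowest CRY1 and ARNTL of the 12 piglets, with levels of 6.91, 6.19 and 7.16. At the other end, SA9 had 5.86, 6.69 and 7.95, and SA10, the lowest in NR1D1, had 5.84, 6.49 and 7.98. CA2, with 6.14, 6.46 and 7.55, held intermediate levels of all 3 genes.

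Over the 12 piglets NR1D1 and CRY1 had a Pearson r of -0.89 (permutation p = 0.00011, adjusted p = 0.00231 over the 21 pairs of members) and a Spearman rho of -0.90 (permutation p = 0.00018, adjusted p = 0.00378). Without CA1 and SA10, the piglets farthest from the median of NR1D1, r was -0.92. The relation held on deviations from the group means, with r = -0.84. Within the CA alone r was -0.91 (exact permutation p = 0.00694) and within the SA alone -0.73 (exact permutation p = 0.111), each over 6 piglets. Leaving out each piglet in turn kept r between -0.94 and -0.83, and the adjusted p was at most 0.0119.

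NR1D1 and ARNTL had r = -0.86 (permutation p = 0.00078, adjusted p = 0.00819) and rho = -0.77 (permutation p = 0.00491, adjusted p = 0.0516). This relation leaned on CA1: without that piglet r was -0.72 and the adjusted permutation p 0.152, and without CA1 and SA10 r was -0.62 (permutation p = 0.0551). Deviations from the group means gave r = -0.81. Within the SA, which does not contain CA1, r was -0.89 (exact permutation p = 0.00972), and within the CA it was -0.76 (exact permutation p = 0.0806). The dimmer features of ARNTL gave r = -0.60 and -0.76 with NR1D1, and neither passed the adjustment over pairs (adjusted permutation p = 0.318 and 0.0516).

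CRY1 and ARNTL varied in the same direction, with r = 0.75 (permutation p = 0.00525, adjusted p = 0.0367) and rho = 0.71 (permutation p = 0.0128, adjusted p = 0.0828). Without CA1 and SA9, the ends of CRY1, r dropped to 0.42 (permutation p = 0.224), so this relation rested on those piglets. It passed the adjustment in 6 of the 12 sets that leave out 1 piglet, but not on deviations from the group means, where r was 0.66 (adjusted permutation p = 0.143). The dimmer features of ARNTL gave r = 0.44 and 0.69 with CRY1, and neither passed (adjusted permutation p = 0.324 and 0.0825).

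**Figure D3:**
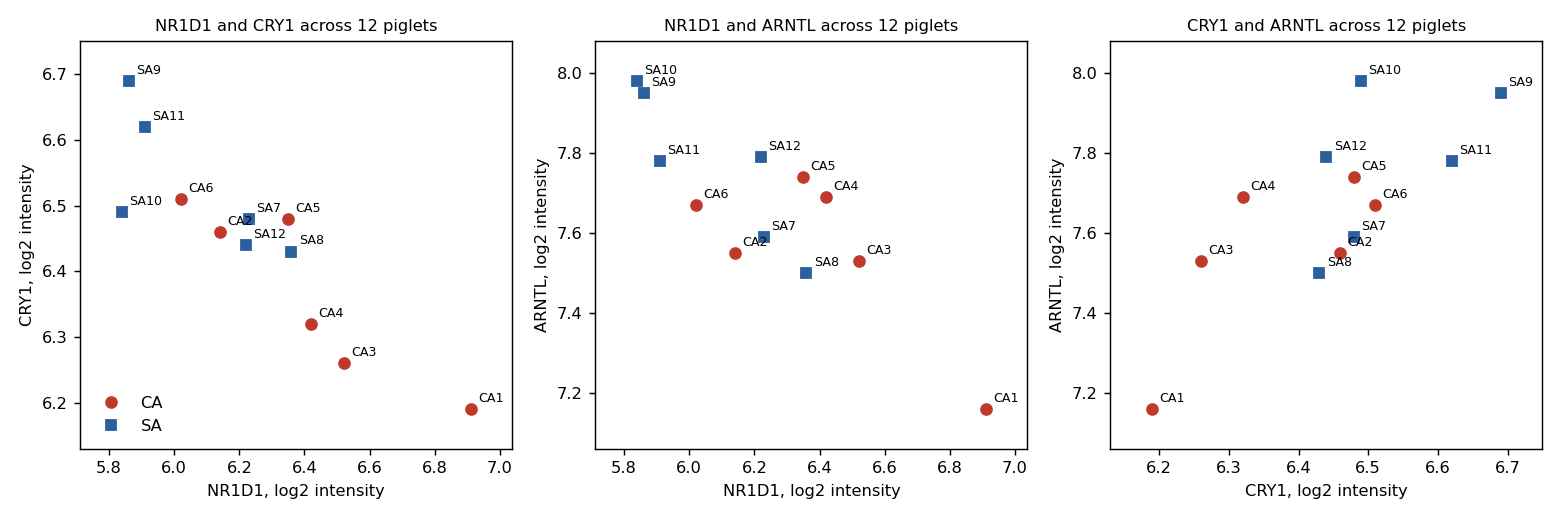
Log2 level of one clock gene against another in the 12 piglets, with CA and SA in separate colours and the piglet number beside each point. CRY1 declines as NR1D1 increases (r = -0.89), ARNTL likewise (r = -0.86), and ARNTL and CRY1 increase together (r = 0.75), with CA1 at one end of each panel.

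Measured against the whole array, these partners of NR1D1 were at the extreme. When the other 10881 genes were ordered by r with NR1D1 from the most negative, CRY1 was at place 1 and ARNTL at place 2. NR1D1 was in turn at place 1 for CRY1 and at place 1 for ARNTL. From the most positive, ARNTL was at place 11 for CRY1, and CRY1 at place 27 for ARNTL. These places are a description, since r of single genes with NR1D1 over 12 piglets is imprecise. On deviations from the group means CRY1 and ARNTL were at places 3 and 9, without CA1 at places 3 and 17, and without CA1 and SA10 at places 1 and 218. Without CA4 they were at places 1 and 2. The reciprocal places moved further: without CA1, NR1D1 was at place 15 for CRY1 and at place 69 for ARNTL, and without CA1 and SA10 at places 2 and 231.

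The other 18 of the 21 pairs of members did not pass the adjustment. PER1 with ARNTL had r = -0.60 (permutation p = 0.0424, adjusted p = 0.223), PER1 with CRY1 -0.55 (adjusted permutation p = 0.261) and NR1D1 with PER1 0.51 (adjusted permutation p = 0.272). The period genes correlated with each other at r = 0.45 (adjusted permutation p = 0.325). The activators CLOCK and ARNTL, which work as a pair, had r = -0.19 (adjusted permutation p = 0.749), and CLOCK with NR1D1 had -0.04. With the dimmer features of ARNTL, r of CLOCK was -0.54 and 0.08, so it varied with the feature used. Some pairs of CLOCK moved when CA4 and another piglet were left out. Without CA4 and SA10, PER2 with CLOCK went from -0.06 to 0.61 (permutation p = 0.0667), and CLOCK with ARNTL was -0.07. Without CA4 and SA9, CRY2 with CLOCK went from -0.22 to 0.57 (permutation p = 0.0838). Within the SA, r of CLOCK was 0.87 with PER2, -0.10 with ARNTL and -0.07 with NR1D1, and none passed adjustment.

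**Figure D4:**
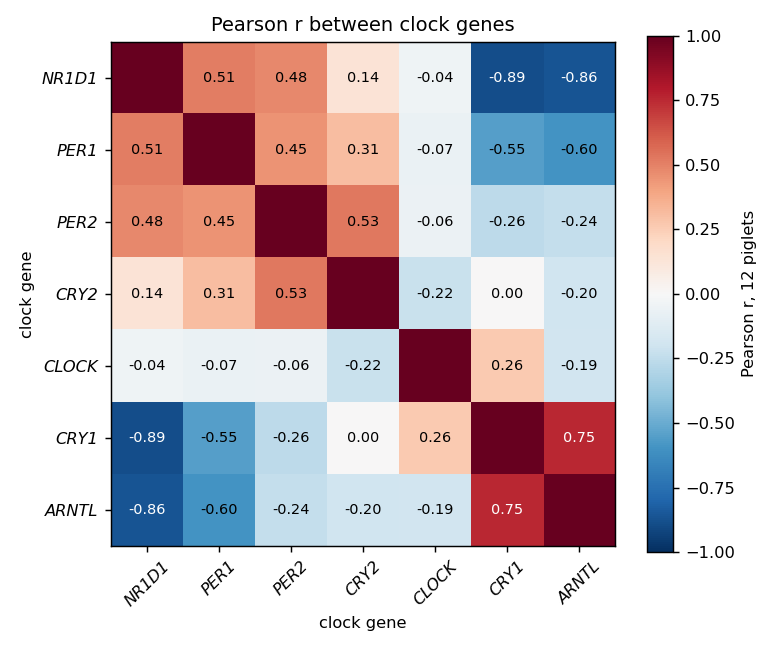
Pearson r between the log2 levels of each pair of the 7 measured clock genes over the 12 piglets, on a colour scale from negative to positive. The cells of NR1D1 with CRY1 (-0.89), NR1D1 with ARNTL (-0.86) and CRY1 with ARNTL (0.75) are those that passed adjustment over the 21 pairs.

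Marker lists of 13 cell types that the sample could hold were set beside the members. For NR1D1 the r with the mean level of each marker list lay between -0.60 and 0.38, for CRY1 between -0.38 and 0.49, for ARNTL between -0.46 and 0.51, and for PER1 between -0.51 and 0.48. None of these passed adjustment over the 98 pairs of members and lists, the lowest adjusted permutation p being 0.471, 0.639, 0.633 and 0.633.

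CRY2 varied with the markers of several cell types, and of these lists only that of parietal cells passed the adjustment. With the mean of ATP4A, ATP4B, KCNE2, CBLIF and KCNJ15, all 5 measured, CRY2 had r = 0.88 (permutation p = 0.00056, adjusted p = 0.0274) and rho = 0.85 (adjusted permutation p = 0.0284). It was 0.83 without the 2 piglets farthest from the median, 0.86 on deviations from the group means and 0.85 to 0.91 with each piglet left out. The marker lists were chosen with earlier results of these data known, so their counts beside all genes are a description. All 5 parietal markers had the higher mean in the CA, where 52.6% of all genes did. Of the 5, 4 had an unadjusted limma p under 0.05 (2.06% of all genes had one and were higher in the CA), with 0 after adjustment, and their summed intensity was 9035 to 12520 in the CA and 7542 to 12330 in the SA. CRY2 also had r = 0.77 with the mean of the endothelial markers (rho = 0.79, adjusted permutation p = 0.0699 for r) and 0.76 with that of the endocrine markers (rho = 0.70, adjusted permutation p = 0.0554 for r), which were 0.70 and 0.69 without CA4, against 0.85 for the parietal markers. Its r was 0.63 with the fat cell and 0.52 with the mucous and pit cell markers. Whether these relations differ from each other, and the part of parietal or other cells in the level of CRY2, was not tested. This relation was looked for after the values had been seen.

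The genes whose levels were most like that of CRY2 were also named after their values were seen. IL11RA, the receptor of interleukin-11, had r = 0.95 with CRY2, SHISA5 0.95 and MMP11, a matrix metalloproteinase, 0.94. At the opposite end stood KIF23, a kinesin of cell division, at -0.95, PUS7 at -0.94 and TTK, a kinase of the spindle checkpoint, at -0.94. Without CA4 these 6 values were 0.94, 0.93, 0.96, -0.94, -0.94 and -0.93.

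CLOCK moved with the array of CA4 and with a list of enzymes that act on clock proteins. Its r with the mean of the 9 measured genes of clock protein turnover was 0.96 (permutation p = 8e-05, adjusted p = 0.00784, rho = 0.90), and 0.84 without CA4. These p-values include CA4, and r was 0.74 without the 2 piglets farthest from the median of CLOCK. PER2 had r = -0.20 with the same mean (adjusted permutation p = 0.826), and -0.31 to 0.87 with each piglet left out. Without the 2 piglets farthest from the median of PER2 it was 0.80, so the relation was not particular to CLOCK. That mean was 9.05 to 9.15 in 11 piglets and 8.68 in CA4. CLOCK also correlated with the first principal component of all genes at r = -0.78, against -0.11 to 0.49 for the other members, and at -0.37 over the 11 piglets without CA4. The genes most like it were RICTOR, a subunit of mTOR complex 2, ARIH1, a ubiquitin ligase, and MKLN1, each at r = 0.98, and 0.92, 0.92 and 0.91 without CA4. The most unlike were COPS3, a subunit of the COP9 signalosome, at -0.97, ABHD17A at -0.96 and PYM1 at -0.96, which were -0.86, -0.91 and -0.87 without CA4.

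**Figure D5:**
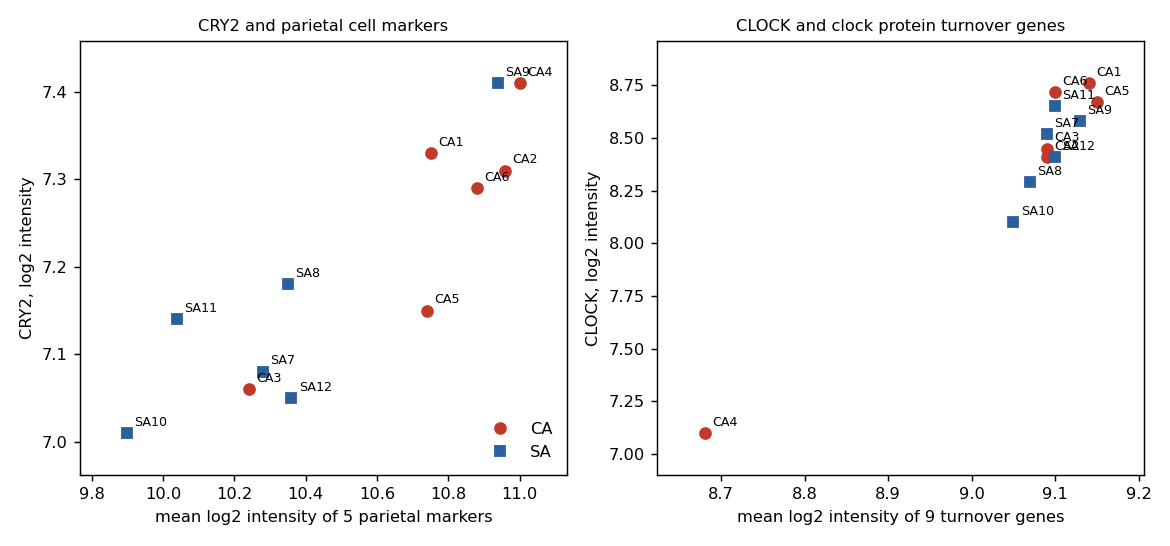
Log2 level of CRY2 against the mean log2 level of 5 parietal cell markers, and of CLOCK against that of 9 genes of clock protein turnover, in the 12 piglets with CA and SA coloured. CRY2 increases with the parietal markers in both groups (r = 0.88), whereas CA4 lies far from the other piglets in the CLOCK panel, where r is 0.96 with and 0.84 without it.

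Outside the clock, the genes with the most similar or most opposed levels were listed for NR1D1, PER1 and ARNTL, and 13 of these 18 genes were dimmer than the median feature. NR1D1 went with RASGEF1C (r = 0.79), WDPCP (0.76) and GRIK2 (0.76), and against PPP4R4 (-0.84), DNAJC5B (-0.82) and LOC100524945 (-0.81), all of them dim. PER1 went with FABP2, a fatty acid binding protein of enterocytes (0.86), STC2, a secreted glycoprotein (0.84), and HIF3A, a hypoxia-inducible factor subunit (0.84). All of these were dim, at mean levels of 3.34, 5.26 and 5.78. PER1 went against TNFSF13B, the B cell survival factor (-0.80), which was dim at 4.75. It also went against MANF, a protein induced by stress of the endoplasmic reticulum (-0.80), and GTF2B, a general transcription factor (-0.78). ARNTL went with MRPL46 (0.84), LOC100524133 (0.83) and CBLN2 (0.82), and against GRIK2 (-0.85), SPIN3 (-0.84) and ADAMTS12 (-0.84). Of these, LOC100524133, CBLN2 and GRIK2 were dim.

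Other genes of the clock and its surroundings were examined as 4 lists, in which 0 genes were called after adjustment. Over all genes, 52.6% had the higher mean in the CA and the median difference was 0.0061. Of the 7 members, 4 had the higher mean in the CA and the median difference was 0.11. Without CA4 these were 49.3% of all genes, and 5 members with a median of 0.18.

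The list of clock partners, the other transcription factors and repressors of the loops, had 6 of 13 genes measured, 1 higher and 5 lower in the CA with a median difference of -0.01. BHLHE40 (DEC1), a repressor induced by CLOCK and ARNTL, averaged 9.29 ± 0.13 (SD, n = 6) and 9.09 ± 0.22 in the CA and the SA, a difference of 0.20 (SE 0.10, limma p = 0.0621, exact permutation p = 0.0844). Its relative BHLHE41 (DEC2) differed by -0.15 (SE 0.19, limma p = 0.439, exact permutation p = 0.496), and by -0.07 without CA4. Neither difference passed the test.

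Of the kinases, phosphatases and ubiquitin ligases that act on clock proteins, 9 of 16 were measured, 1 higher and 8 lower in the CA, with a median of -0.08 and a range of -0.12 to 0.13. This direction rested on CA4, without which 6 were higher and 3 lower with a median of 0.01. GSK3B, a kinase that phosphorylates several clock proteins, differed by -0.06 (SE 0.05, limma p = 0.233, exact permutation p = 0.0476) and CSNK2A1, the catalytic subunit of casein kinase 2, by -0.08 (SE 0.08, limma p = 0.343, exact permutation p = 0.444). In CSNK2A1 the lowest CA level was 9.35, in CA4, and the next was 9.79. Without CA4 the means of CSNK2A1 were 9.81 in the CA and 9.81 in the SA.

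Among genes known in rodents as rhythmic outputs of the clock, 14 of 21 were measured, 6 higher and 8 lower in the CA with a median of -0.02. CDKN1A, the cell cycle inhibitor p21, read 7.66, 8.09 and 8.60 (lowest, median, highest) in the CA and 7.55, 7.71 and 8.02 in the SA, a difference of 0.40 (SE 0.14, limma p = 0.0156, exact permutation p = 0.0368). TFRC, the transferrin receptor, read 8.66, 8.74 and 8.96 against 8.85, 8.94 and 9.22, a difference of -0.20 (SE 0.08, limma p = 0.0279, exact permutation p = 0.0325). Their groups overlapped, and the limma adjusted p was 0.999 for both.

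Genes that respond to glucocorticoids or to fasting, signals that also act on PER1, had 12 of 20 measured, 10 higher and 2 lower in the CA with a median of 0.13. DDIT4 (REDD1), an inhibitor of mTOR complex 1, had 7.99, 8.41 and 9.28 in the CA and 7.65, 7.96 and 8.07 in the SA. Its difference of 0.68 (SE 0.21, limma p = 0.00541, exact permutation p = 0.00433) was larger than that of any clock gene, but the limma adjusted p was 0.999. FOXO3, a transcription factor of fasting and stress, differed by 0.20 (SE 0.08, limma p = 0.0301, exact permutation p = 0.0411) and BCL6, a transcriptional repressor, by 0.27 (SE 0.11, limma p = 0.0358, exact permutation p = 0.0476). Without CA4, 8 genes of the list were higher and 4 lower with a median of 0.07. DDIT4 alone of the list then kept a limma p under 0.05, where 499 of the 10882 genes had one. Its difference was 0.57 (limma adjusted p = 0.983).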

How the data were processed

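Total RNA of the oxyntic mucosa of 12 piglets was hybridized by the authors on Affymetrix porcine gene arrays and summarised by Robust Multichip Analysis in Expression Console (its version: not given in the sources used). The deposited values are normalized intensities on a linear scale for 27558 features. They were converted here to log2. The number of unused columns of sample values is 0.

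Features were named through the platform annotation: 11939 had 1 gene symbol, 416 several and 15203 none, and 958 of 10882 genes had several features, of which the brightest was kept. No symbol changed when gene identifiers were matched to RefSeq (10922 features matched). Groups came from the labels, which give litter and pen balance only for the groups as a whole. On housing, labels and methods differ: only the labels give each treatment rooms of its own.

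CA and SA were compared with lmFit and eBayes of limma 3.58.1 in R 4.3.3, with no covariate and Benjamini-Hochberg adjustment over all genes, and by a two-sided exact permutation test whose smallest p is 0.00216. Pairs of members used Pearson r and Spearman rho with a two-sided permutation test of 100000 resamples over 12 piglets (exact within groups of 6), in scipy 1.17.1 (Python 3.11.15, pandas 2.3.3, numpy 2.4.6). Figures were drawn with matplotlib 3.10.9. The scripts were tested on simulated data.

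The members and lists were chosen with earlier results of these data known. Named genes were the members, every gene of the 4 lists with an unadjusted limma p under 0.05 (otherwise the 2 with the smallest p), and the 3 genes most like and 3 most unlike NR1D1, PER1 and ARNTL. The relations with marker lists and single list genes, the genes most like CRY2 and CLOCK, the other features of ARNTL, the values of lists and members without CA4 and the places among all genes were chosen after seeing the data. Alternatives were leaving out dim features, averaging a gene's features, other normalizations, other moderation of the variance, array weights, every feature of the array, linear intensities and leaving out each piglet. Promoter motifs were not examined. Arrays carry no read depth, and the number of piglets limits the precision.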

Additional observations from a re-analysis of the deposited data

Results flagged for a closer look

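In 32 groups of 6 piglets, the gap between an extreme piglet and its nearest neighbour, as a share of the group's range, was above the 95% limit of 0.625 in 3. Chance alone gives about 1 in 20 such groups. CLOCK of CA4 was the lowest of the CA with a share of 0.792, at 7.10 against 8.41 in the next piglet. CSNK2A1 of CA4 was the lowest of the CA with a share of 0.926, at 9.35 against 9.79. ARNTL of CA1 was the lowest of the CA with a share of 0.627, at 7.16 against 7.53, and CA1 was also the piglet with the highest NR1D1, 6.91. The weight that limma gave the array of CA4 was 0.267, against 0.692 to 1.56 for the others.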

How the results depend on the processing

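The count of genes called between CA and SA was 0 under all 21 alternatives. Over the alternatives with 1 value per gene, 192 to 698 genes had an unadjusted p under 0.05. That p was from limma, except for the 373 genes of the exact permutation test. The lowest count, 192, came from the filter on dim features, which tested fewer genes. The CA minus SA differences of NR1D1, PER1, PER2, CRY1, CRY2 and ARNTL kept their direction in every alternative run, with CRY1 at -0.09 under array weights and ARNTL at -0.13 without CA1. PER2 had no value under the filter on dim features. CLOCK reversed from -0.07 to 0.13 with array weights, to 0.18 without CA4 and to 2.23 intensity units on the linear scale. With each piglet left out the differences spanned 0.22 to 0.40 (NR1D1), 0.27 to 0.48 (PER1), 0.15 to 0.26 (PER2), -0.18 to -0.12 (CRY1), 0.08 to 0.17 (CRY2), -0.15 to 0.18 (CLOCK) and -0.26 to -0.13 (ARNTL). The number of pairs of members that passed adjustment was 3, and was 2 on deviations from the group means and with the mean of all features, 1 without the 2 piglets farthest from the median of the first gene, and 0 within the CA and 0 within the SA, where only 6 piglets enter. With each piglet left out it ranged from 1 (without CA1) to 4 (without CA4). By the paper, litters were balanced over the groups, but no label ties a piglet to its sow. Littermates in the CA and the SA could therefore not be matched, and no paired analysis was run. The replicate numbers only count the piglets and mark no pairs. The search for promoter motifs was not run. PER2 lay below the median feature, which limits its signal over background.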

Other observations

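PER1 was set against the 12 measured genes of the glucocorticoid and fasting list, a relation chosen after seeing the data, and 2 of the 12 passed adjustment over these genes. KLF9, a transcription factor induced by glucocorticoids, was 6.32, 7.90 and 8.32 (lowest, median, highest) in the CA and 7.10, 7.43 and 8.00 in the SA, so it did not separate the groups. Over the 12 piglets its r with PER1 was 0.76 (permutation p = 0.0052, adjusted p = 0.0312) and its rho 0.88 (permutation p = 0.00027, adjusted p = 0.00324). The r was 0.76 without the 2 piglets farthest from the median, 0.86 on deviations from the group means and 0.72 to 0.87 with each piglet left out. PDK4, a kinase that spares glucose in fasting, had r = 0.79 with PER1 (permutation p = 0.00406, adjusted p = 0.0312), but rho was 0.57 (adjusted permutation p = 0.217) and r was 0.36 without CA3 and SA12, on which the relation rested.

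NR1D1, CRY1 and ARNTL were set against the 6 measured clock partners in the same way. None of the 18 pairs passed, with r between -0.43 and 0.37 and a lowest adjusted permutation p of 0.913. PER2 had r = -0.80 with the mean of the 4 T cell markers (adjusted permutation p = 0.0554 over 98 pairs) and rho = -0.86 (adjusted permutation p = 0.0284), so the relation passed by rank and not by r. The genes most like PER2, named after their values were seen, were CPA1, a carboxypeptidase (r = 0.92), FIP1L1 (0.87) and CIRBP, a cold-inducible RNA-binding protein (0.86), and the most unlike were SAR1A, a GTPase of vesicle transport (-0.85), DNAJB9, a chaperone of the endoplasmic reticulum (-0.85), and SELENOS (-0.84).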
